A study of Homo sapiens with 19 samples.

Results

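The pellet collected from Caco-2 culture medium at 100000 xg (P100) was compared with the pellet collected before it at 40000 xg (P40). Libraries were taken by their titles, 4 named for the P100 pellet and 4 for the P40 pellet, out of 19 libraries in the series. The series counted mature microRNAs (miRNAs) in Caco-2 cells and in RNA released by them. The other 11 libraries are of cell lysate, of total extracellular RNA (exRNA) and of the supernatant of the faster spin (S100). They entered the statistical model, except for 1 S100 library with 48 counts, and are named below only as context.

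Caco-2 is an established human epithelial line from a colorectal tumour, labelled wild type in every library. Cells grew in DMEM with 20% fetal bovine serum and, at 80% confluence, spent 24 h in medium free of serum and antibiotics. The medium was cleared of debris and spun at 40000 xg. The P40 pellet went into Trizol, and the remaining fluid was spun at 100000 xg to give the P100 pellet, which also went into Trizol. P40 and P100 therefore share cells, medium and RNA preparation and differ in the spin that brought the material down. Neither pellet was purified further according to the labels, so each holds whatever sedimented at that step. The RealSeq-AC kit, version 2, was used for the small RNA libraries, which were sequenced from a single end for 50 bases.

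A mature miRNA is a short RNA loaded into an Argonaute protein, where its seed, bases 2 to 8 from the 5′ end, pairs with target messenger RNAs. Cells release miRNAs inside vesicles of several sizes and also bound to proteins outside vesicles. Slower ultracentrifugation is generally used to bring down larger vesicles, and faster spins bring down small vesicles together with other particles such as lipoproteins and ribonucleoproteins. Some entries of the miRNA catalogue lie inside ribosomal RNA (rRNA) genes or repeat the sequence of another RNA class, and reads assigned to such an entry can be fragments of that longer RNA.

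Below are the mature sequences of the miRNAs on which the comparison turned, from RefSeq (GRCh38.p14), 5′ to 3′ with the seed in capitals. The first group is shown for its high share of G and C. It holds 4 miRNAs called higher in P100 (miR-10396a-3p, miR-10396b-3p, miR-10396a-5p and miR-3648) and 3 that were not called (miR-10396b-5p, miR-663a and miR-7704). The 3p forms of miR-10396a and miR-10396b have the same seed, and the seed of miR-10396b-5p recurs in miR-663a.
miR-10396a-3p: gGCCCCGGgcccucgaccggg
miR-10396b-3p: gGCCCCGGgcccucgaccggac
miR-10396a-5p: gGCGGGGCucggagccggg
miR-10396b-5p: cGGCGGGGcucggagccggg
miR-663a: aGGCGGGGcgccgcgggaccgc
miR-3648: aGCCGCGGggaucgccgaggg
miR-7704: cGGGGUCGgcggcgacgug

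The second group holds the 6 miRNAs called lower in P100 and 2 uncalled ones for comparison. miR-106a-5p is shown beside miR-17-5p because they have the same seed and differ by A1C alone, counted from the 5′ end with the base of miR-106a-5p first. miR-454-3p is shown beside miR-130b-3p, which has its seed. Neither miR-17-5p nor miR-130b-3p was called.
miR-106a-5p: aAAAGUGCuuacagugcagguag
miR-17-5p: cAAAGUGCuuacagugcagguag
miR-454-3p: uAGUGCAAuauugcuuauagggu
miR-130b-3p: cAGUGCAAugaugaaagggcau
miR-362-5p: aAUCCUUGgaaccuaggugugagu
miR-205-5p: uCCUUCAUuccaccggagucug
miR-21-5p: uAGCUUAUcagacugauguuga
miR-371a-5p: aCUCAAACugugggggcacu

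The pellet libraries were shallow. P100 held 10017 to 27027 counts and P40 10490 to 26096, so that 3 counts corresponded to 111 to 299 CPM, the unit used below for counts scaled to library size. In all, 569 miRNAs had a count in a pellet library, 462 in P100 and 466 in P40, and the 168 present in all 8 libraries held at least 95.8% of the counts of each. No miRNA was present in every library of a pellet and absent from every library of the other. Spearman's rho averaged 0.913 among P100 libraries (6 pairs), 0.818 among P40 libraries (6 pairs) and 0.813 between P100 and P40 (16 pairs). P40 split into replicates 1 and 2 (0.902) and replicates 3 and 4 (0.853), with 0.761 to 0.805 across the split. The deposited file of P40 replicate 3 names human miRNAs in its title where those of the other 7 pellet libraries do not, and whether its mapping differed is not given in the sources used here. Called miRNAs are therefore given below also against each side of the split. Reads carried no molecular identifiers, so counting intervals cover counting error only. Whether replicates are separate cultures is not labelled, so a p-value here reflects only the spread among these libraries, which may be technical. In a bulk pellet, fewer carriers of a kind and less RNA in each, like fewer cells of a type and less RNA per cell, cannot be told apart.

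P100 differed from P40 most clearly in a few entries of very high GC content, some of which lie in rRNA genes. Both 3p forms of miR-10396 were higher in P100 by more than 3 on the log2 scale, and miR-10396a-5p, miR-3648 and miR-3960 were also higher. Lower in P100 were miR-106a-5p of the growth-promoting miR-17/92 group, miR-362-5p, miR-454-3p, miR-205-5p, an epithelial miRNA, miR-21-5p, which is raised in most carcinomas, and miR-371a-5p of an embryonic stem cell cluster. These 5 higher and 6 lower miRNAs are 4.85% of the 227 tested (2.20% and 2.64%), by edgeR's quasi-likelihood test at a Benjamini-Hochberg adjusted p below 0.05. All 11 had the same sign in 4 of 4 replicate numbers. Where the pellets did not overlap this follows from their separation and adds nothing to the call. The most abundant miRNAs, miR-92a-3p and miR-7704, were not called.

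At an unadjusted p below 0.05 there were 44 miRNAs (19.4%). The pellets did not overlap for 25 (11% of those tested), and 10 of the 11 called were among them. For miR-362-5p and miR-454-3p the closest libraries of the pellets held 1 count each and were apart only by library scaling. The median log2 fold change over all tested miRNAs was -0.18, with 105 above 0 and 122 below. With library size alone as the scale the median moved by -0.23 and the calls were 5 higher and 16 lower, in DESeq2 they were 10 and 7, and in a fit of the 8 pellet libraries alone 7 and 2. That fit tested 132 miRNAs, and miR-106a-5p, miR-362-5p, miR-454-3p and miR-3960 were not among them: they passed the filter on low counts only with the other fractions included. For miR-3960 the mean share of counts was 0.0436% in P100 and 0% to 0.0190% in the other groups. It was thus tested through the group in which it was called higher. With the replicate number as a block the calls were 4 higher and 5 lower.

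**Figure D1:**
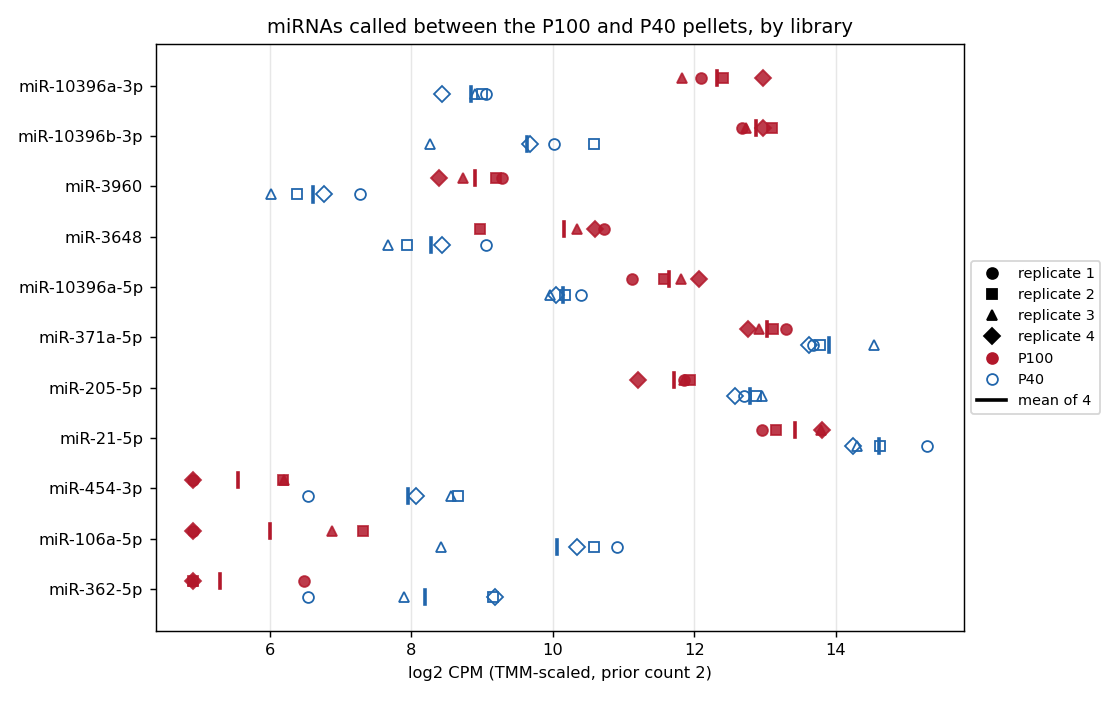
Level of each of the 11 called miRNAs in the 8 pellet libraries, as log2 CPM on the x axis, with P100 filled, P40 open, the marker shape giving the replicate number and the bar the mean of 4 libraries. The pellets are apart for 10 miRNAs and overlap for miR-3648, and the low ends of miR-454-3p, miR-106a-5p and miR-362-5p are libraries with 0 to 3 counts. For miR-454-3p and miR-362-5p the closest libraries of the pellets held 1 count each.

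**Figure D2:**
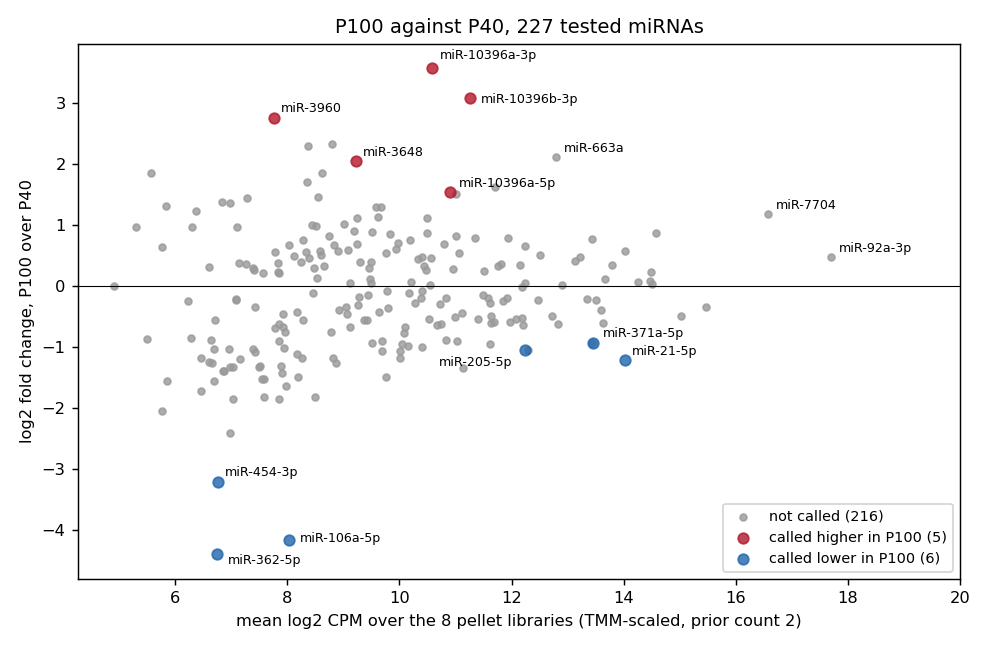
Log2 fold change of P100 over P40 against mean log2 CPM over the 8 pellet libraries for the 227 tested miRNAs, with the 5 called higher in red and the 6 called lower in blue. Below a mean of about 9 the uncalled miRNAs spread widely, and the abundant miR-7704 and miR-92a-3p lie above 0 without a call.

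miR-10396a-3p had the lowest p of all tested miRNAs. Its 4 P100 libraries, replicates 1 to 4, held 4327, 5380.4, 3590.3 and 8015 CPM (73, 125, 82 and 79 counts), and the P40 libraries 501, 484, 449.5 and 316 CPM (8, 9, 13 and 4 counts). Every P100 library lay far above every P40 library, with no overlap. The means were 5328 ± 1936 CPM (SD, n = 4) and 438 ± 83.8 CPM (n = 4), a log2 fold change of 3.58 ± 0.52 (SE; edgeR adjusted p = 0.000105). The call held in each of 18 other settings, the sum with miR-10396b-3p among them, with log2 fold changes of 3.26 to 3.79. Against P40 replicates 1 and 2 or 3 and 4 alone the log2 fold change was 3.26 and 3.79. The miRNA is annotated at chr21:8987645-8987665 on the plus strand, in the hairpin MIR10396A (chr21:8987617-8987665), where the RefSeq table gave no other gene.

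miR-10396b-3p shares a run of 20 bases with miR-10396a-3p and its reads may have been split between them. It had 6519.6, 8695, 6787 and 8015 CPM in P100 and 1003, 1505, 277 and 791 CPM in P40, again with no overlap. The log2 fold change was 3.09 ± 0.56 (edgeR adjusted p = 0.00109), 2.44 against P40 replicates 1 and 2 alone and 4.01 against replicates 3 and 4. Counted together, the 3p forms had 183, 327, 237 and 158 counts in P100 and 24, 37, 21 and 14 in P40, a log2 fold change of 3.27 ± 0.54 (adjusted p = 0.00146). The hairpin MIR10396B at chr21:8436324-8436374 lies within the 45S pre-rRNA gene RNA45SN1 (chr21:8433222-8446572), 3102 bases from its start and 502 bases before the 18S rRNA, in the transcribed spacer that is removed from the precursor.

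The 5p forms from the same hairpins differed less. miR-10396a-5p had 2193, 3013, 3547 and 4261 CPM in P100 against 1316, 1129, 968 and 1028 in P40, a log2 fold change of 1.55 ± 0.37 (edgeR adjusted p = 0.0145), without overlap. Its adjusted p was 0.0512 to 0.0535 when P100 replicate 3 or 4, or P40 replicate 2, was omitted. Against P40 replicates 3 and 4 alone the log2 fold change was 1.76 (adjusted p = 0.0495), and against replicates 1 and 2 alone 1.26 (adjusted p = 0.125). miR-10396b-5p, which contains the whole of miR-10396a-5p, had a log2 fold change of 0.67 ± 0.34 (adjusted p = 0.252), and the 5p forms counted together 0.91 ± 0.32 (adjusted p = 0.129). The call of miR-10396a-5p thus did not hold for the sum.

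Within these hairpins the balance of arms differed between the pellets. The 3p arm made up 58.5%, 57.5%, 49.9% and 64.2% of miR-10396a and miR-10396b counts in P100 replicates 1 to 4 (246 to 569 counts) and 23.8%, 28.5%, 11.1% and 20.9% in P40 (67 to 189 counts). Exact 95% counting intervals reached down to 45.3% in P100 and up to 37.0% in P40, so those of the pellets did not meet. The share was 10.2% to 15.7% in total exRNA (n = 4) and 14.6% to 22.7% in S100 (n = 3), so that P100 stood above the other extracellular fractions. Cell lysate held only 4 to 31 such counts, with shares from 0% to 77.4% (n = 3). This measure was chosen after its values were seen and rests on the same reads as the fold changes above, so it has no test.

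**Figure D3:**
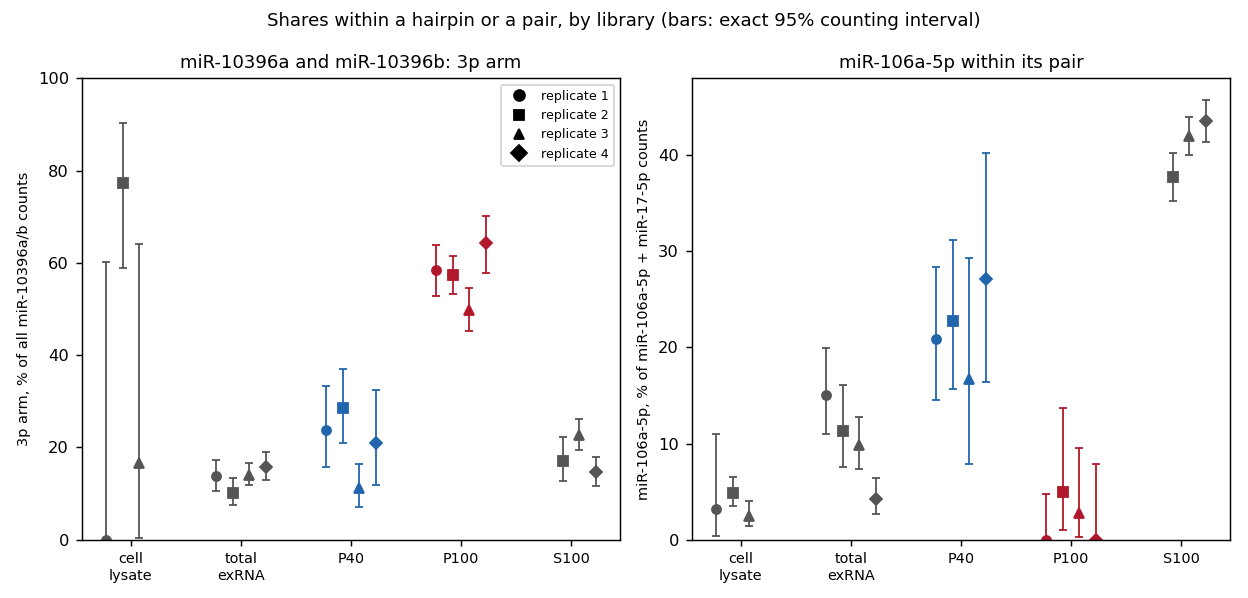
Left, 3p-arm counts as a percentage of all counts of miR-10396a and miR-10396b, and right, miR-106a-5p as a percentage of its sum with miR-17-5p, in each of 18 libraries by group, with exact 95% counting intervals. P100 (red) lies between 49.9% and 64.2% on the left, above P40 (blue, at most 28.5%), and between 0% and 4.92% on the right, below P40 (at least 16.7%).

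miR-3648 comes from the same kind of locus. Its copy MIR3648-1 (chr21:8208473-8208652) lies within RNA45SN2, 979 bases before the 18S rRNA, and MIR3648-2 lies beside MIR10396A. P100 held 1659.5, 473, 1269.7 and 1522 CPM and P40 501, 215, 173 and 316 CPM. P100 replicate 2 fell below P40 replicate 1, so the pellets overlapped. The log2 fold change was 2.05 ± 0.55 (edgeR adjusted p = 0.0291), and in 6 of 8 fits that omitted 1 library (P100 replicates 1, 3 and 4, P40 replicates 2, 3 and 4) the adjusted p rose to between 0.0524 and 0.103. The call was lost against either side of the P40 split, with 1.64 against replicates 1 and 2 (adjusted p = 0.166) and 2.46 against replicates 3 and 4 (adjusted p = 0.0851).

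miR-3960 rested on 10, 13, 9 and 3 counts in P100 and 2, 1, 1 and 1 in P40. The log2 fold change of 2.77 ± 0.79 (edgeR adjusted p = 0.0427) was called in only 3 of 15 other settings. With the replicate block its adjusted p was 0.0730, and in 7 of 8 fits that omitted 1 library (all but P40 replicate 1) it was 0.0542 to 0.110. Against P40 replicates 1 and 2 alone the value was 2.29 (adjusted p = 0.170) and against replicates 3 and 4 alone 3.26 (adjusted p = 0.0999).

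The called miR-10396 forms and miR-3648 belong to a list of 17 catalogue entries at rRNA loci or of rRNA sequence. Of these entries, 13 were listed in the series and 11 tested. All 11 tested members had a log2 fold change above 0. The median was 1.52, which is the value of miR-12136, beside -0.18 for all tested miRNAs. Of the 11, 4 were called higher (2.20% over all tested miRNAs) and 0 lower (2.64%). The list was chosen with earlier results of these data known, and it counts near-identical miR-10396 forms as separate members. The shared sign is therefore no independent evidence. The summed share of the list was 5.02%, 5.83%, 4.87% and 7.27% of counts in P100 and 3.04%, 2.39%, 2.21% and 1.76% in P40, so the pellets did not overlap. Summed shares here and below are percentages of all counts of a library and, unlike CPM, are not TMM-scaled. The median stayed between 1.26 and 2.46 over the alternatives run, while the number called fell to 2 when P100 replicate 3 or 4, or P40 replicate 2, was omitted.

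The list also held uncalled members. miR-663a, at chr20:26208243-26208264 within the long noncoding RNA MIR663AHG, had 9305, 13257, 12916 and 30436 CPM in P100 and 7209, 2687, 2974 and 2293 in P40. P100 replicate 4 and P40 replicate 1 stood above the rest of their pellets, and the log2 fold change of 2.11 ± 0.70 missed the threshold (edgeR adjusted p = 0.0966). miR-4485-3p, whose sequence recurs whole in the mitochondrial rRNA MT-RNR2, had a log2 fold change of 0.78 ± 0.50 (adjusted p = 0.355). miR-12136, also on the list, matches the mitochondrial transfer RNA MT-TS1 instead of an rRNA.

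Entries that repeat transfer, small nuclear, small nucleolar or vault RNA did not share a direction, with 2 tested members above 0 and 3 below. Their summed share was 0.981% to 1.11% of counts in P100 and 1.24% to 1.84% in P40. It was lower in P100 without overlap, but only in shares that are not TMM-scaled. Of 25 on that list 5 were tested, 0 were called and the median was -0.44, turning to 0.052 without P40 replicate 2 and to 0.43 against P40 replicates 3 and 4 alone. miR-1246, found whole in 8 U2 small nuclear RNA genes, had a log2 fold change of -1.05 ± 0.37 (edgeR adjusted p = 0.105). miR-3651, found whole in SNORA84, had 0.80 ± 0.33 (adjusted p = 0.147).

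The called miRNAs also differed in base composition. The 4 higher ones with a sequence are the miR-10396 forms, near-identical in part, and miR-3648. All are on the rRNA list above, so their GC content is no independent observation. The 4 higher ones with a RefSeq sequence had a GC content of 81.0% to 90.5%, and the 6 lower ones 34.8% to 55.0%, beside a median of 50.0% over 192 tested miRNAs with a sequence and at least 10 pellet counts. Among the 22 miRNAs of 70% GC or more, 16 had a log2 fold change above 0 and the median was 0.75. The 26 miRNAs under 40% GC had a median of 0.06, and those between 40% and 50% a median of -0.49 (63 miRNAs). From 50% to 60% the median was 0.08 (57 miRNAs) and from 60% to 70% it was -0.24 (24 miRNAs). The medians thus did not rise steadily with GC content. Across the 192 miRNAs, which come from the same 8 libraries, Spearman's rho of GC content with log2 fold change was 0.28. It was 0.38 against P40 replicates 3 and 4 alone and 0.09 against replicates 1 and 2 alone, so the relation depended on which P40 libraries were used.

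Weighted by counts, the mean GC content of a library was 57.8%, 59.4%, 59.9% and 59.4% in P100 and 56.0%, 56.4%, 52.6% and 52.5% in P40. All P100 libraries lay above all P40 libraries, with P40 replicates 3 and 4 lowest. The exact two-sided permutation test gave p = 0.0286, the smallest that 70 arrangements allow, and an adjusted p of 0.0857 over 5 such measures. The difference of 4.78 percentage points became 3.22 without miR-92a-3p and miR-7704. The letters GGAG, known as a motif bound by a protein that loads miRNAs into vesicles, stood in 1 of the 4 higher, 1 of the 6 lower and 19 of the 192 miRNAs (9.90%), read on the miRNA strand only.

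**Figure D4:**
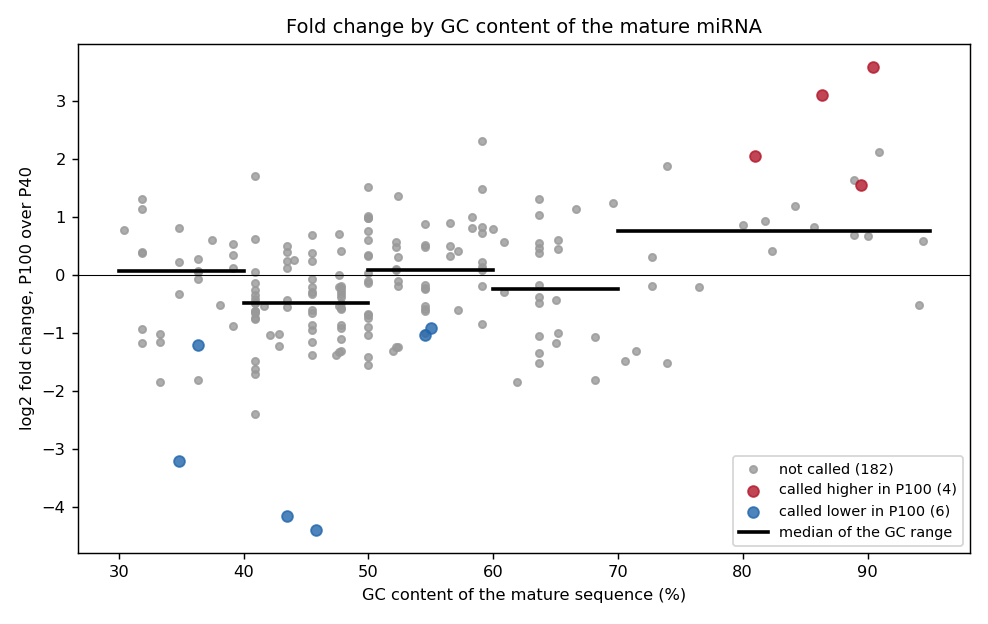
Log2 fold change of P100 over P40 against the GC content of the mature sequence for 192 tested miRNAs with a sequence and at least 10 counts in the pellets, with black bars for the median of each GC range. The 4 called higher with a sequence sit above 80% GC and the 6 called lower at or below 55.0%, and only the range of 70% or more has a median well above 0 (0.75).

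miR-106a-5p had the lowest p among the miRNAs lower in P100. It had 0, 3, 2 and 0 counts in P100 and 30, 28, 9 and 16 in P40 (1881, 1505, 311 and 1265 CPM), so the pellets did not overlap. Pooled, the P100 to P40 ratio was 0.0538 (exact 95% counting interval 0.0170 to 0.131), and the fitted log2 fold change, which depends on the prior count, was -4.17 ± 0.74 (edgeR adjusted p = 0.000987). The call held in each of 8 fits that omitted 1 library, and against P40 replicates 1 and 2 alone (-4.75, adjusted p = 0.000134) or 3 and 4 alone (-3.33, adjusted p = 0.0264). The hairpin is at chrX:134170198-134170278 on the minus strand, in MIR106AHG.

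Its near-identical neighbour was not called. miR-17-5p, from MIR17HG at chr13:91350618-91350640, differs from miR-106a-5p only in its first base and had a log2 fold change of -0.23 ± 0.49 (edgeR adjusted p = 0.773). Summed, the pair had 4447, 2642, 3215 and 4474 CPM in P100 and 9019, 6656, 1856 and 4638 in P40. The groups overlapped and the log2 fold change was -0.59 ± 0.49 (adjusted p = 0.467), so no difference of the pair was called.

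The share of miR-106a-5p in the pair was 0%, 4.92%, 2.74% and 0% in P100 and 20.8%, 22.8%, 16.7% and 27.1% in P40. With 76 and 45 counts of the pair, 3 counts correspond to 3.95% in P100 replicate 1 and 6.67% in replicate 4, and the exact 95% upper limits of their zeros were 4.74% and 7.87%. Cell lysate had 2.5% to 4.88% (n = 3), total exRNA 4.26% to 15.1% (n = 4) and S100 37.7% to 43.5% (n = 3). P100 thus overlapped the cells in this share and P40 lay between total exRNA and S100. How the submitters' counting assigned reads that lack the first base is not given in the sources used here.

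The other miR-17/92 members gave no further call. Of 28 miRNAs in these clusters and their paralogs 16 were tested, with 1 lower (2.64% over all tested miRNAs) and 0 higher (2.20%). The median was 0.09 (-0.26 to 0.30 over the alternatives). miR-20a-5p, which has the same seed, had a log2 fold change of 0.34 ± 0.37 (edgeR adjusted p = 0.552). miR-92a-3p, the most abundant miRNA of both pellets, made up 24.1% ± 1.92 of counts in P100 and 19.9% ± 4.72 in P40, a log2 fold change of 0.48 ± 0.25 (adjusted p = 0.258).

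miR-362-5p and miR-454-3p were nearly absent from P100. miR-362-5p, from an intron of CLCN5 at chrX:50008964-50009028, had 1, 0, 0 and 0 counts in P100 and 1, 10, 6 and 7 in P40. Replicate 1 of both pellets held 1 count (59.3 and 62.7 CPM), so their separation there is not detectable at this depth. The ratio was 0.0372 (exact interval 0.000906 to 0.228) and the fitted log2 fold change -4.40 ± 1.00 (edgeR adjusted p = 0.0114), which became 0.0512 to 0.0535 when P100 replicate 3 or P40 replicate 2 was omitted. Omitting P100 replicate 1 leaves P100 at 0 counts, and the fitted value of -7.53 is then no bound. It was -4.42 against P40 replicates 1 and 2 alone (adjusted p = 0.0164) and -4.40 against replicates 3 and 4 alone (adjusted p = 0.0258).

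miR-362-5p belongs to an X-linked cluster with miR-188, miR-500, miR-501, miR-502, miR-532 and miR-660. Of 9 tested members 8 had a log2 fold change below 0, beside 122 of 227 over all tested miRNAs. The median was -0.69 (-0.18 over all) and 1 was called lower, miR-362-5p (2.64% over all). The summed share of the cluster was 0.925%, 0.593%, 0.611% and 0.559% in P100 and 0.944%, 1.06%, 1.02% and 1.01% in P40. P100 replicate 1 came close to P40, and the pellets did not overlap in these shares, which are not TMM-scaled. The abundant member miR-532-5p had -0.60 ± 0.31 (edgeR adjusted p = 0.258), and miR-501-3p lay on the other side (0.87 ± 0.48, adjusted p = 0.269).

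miR-454-3p, from an intron of SKA2 at chr17:59137758-59137872 on the minus strand, had 0, 1, 1 and 0 counts in P100 and 1, 7, 10 and 3 in P40. The 1 count of P40 replicate 1 (62.7 CPM) lay above those of P100 replicates 2 and 3 (43.0 and 43.8 CPM) only by library scaling. The ratio was 0.0851 (exact interval 0.00968 to 0.348), and the fitted log2 fold change was -3.21 ± 0.87 (edgeR adjusted p = 0.0291). The call was kept in 7 of 15 other settings, and was lost in 6 of 8 fits that omitted 1 library (any P100 library, P40 replicate 2 or 3; adjusted p = 0.0636 to 0.103). It was -3.09 against P40 replicates 1 and 2 alone (adjusted p = 0.0741) and -3.33 against replicates 3 and 4 alone (adjusted p = 0.0446).

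miR-454-3p shares its seed with miR-130a, miR-130b, miR-301a and miR-301b. The family list had 6 tested members, 1 lower (2.64% over all tested miRNAs), which is miR-454-3p itself, and 0 higher (2.20%). The median was -0.92, beside -0.18 for all tested miRNAs. Its summed share was 0.305%, 0.284%, 0.366% and 0.299% in P100 and 1.01%, 0.646%, 0.479% and 0.458% in P40. Without TMM scaling the pellets thus did not overlap, and the P40 values were higher in replicates 1 and 2. miR-130b-3p carried most of these counts and had 2549, 1851, 3065 and 1928 CPM in P100 and 7271, 5052, 3285 and 2609 in P40. Its log2 fold change was -0.95 ± 0.36 (edgeR adjusted p = 0.124). miR-301a-3p lay on the other side (0.52 ± 0.53, adjusted p = 0.538).

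miR-205-5p, which supports the epithelial state by targeting ZEB repressors, was lower in P100 with a smaller fold and more counts. P100 held 3675, 3874, 3678 and 2333 CPM and P40 6645, 7471, 7919 and 6088 CPM. The pellets were apart, and P100 replicate 4 lay far below the other P100 libraries. The log2 fold change was -1.04 ± 0.27 (edgeR adjusted p = 0.0280), -1.16 and -0.97 against the sides of the P40 split (replicates 1 and 2 first). The adjusted p was 0.0528 to 0.106 in the 5 fits that omitted P100 replicate 1, 3 or 4 or P40 replicate 2 or 3. The hairpin lies in an intron of MIR205HG at chr1:209432133-209432242.

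miR-21-5p was the fifth most abundant miRNA of P40 (2.86% of counts). It had 7942, 9039, 14055 and 14203 CPM in P100 and 40056, 25261, 20126 and 19214 in P40. All P40 libraries lay above all P100 libraries, but the gap was wide in replicate 1 and narrow in replicate 4. The log2 fold change was -1.21 ± 0.32 (edgeR adjusted p = 0.0291). It was -1.69 against P40 replicates 1 and 2 alone (adjusted p = 0.00270) and -0.74 against replicates 3 and 4 alone (adjusted p = 0.212). The adjusted p was 0.0535 to 0.110 in the 6 fits that omitted any P100 library or P40 replicate 1 or 2. miR-21 lies in an exon of VMP1 at chr17:59841266-59841337.

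miR-371a-5p lies at chr19:53787680-53787699 in a cluster with miR-372 and miR-373 that is active in embryonic stem cells and germ cell tumours. P100 held 10016.5, 8781, 7706 and 6899 CPM and P40 13101, 13920.2, 23757 and 12572 CPM. The pellets did not overlap, and P40 replicate 3 stood above the other P40 libraries. The log2 fold change was -0.92 ± 0.26 (edgeR adjusted p = 0.0364), with an adjusted p of 0.0731 with the replicate block. It was kept in 6 of 18 other settings, and omitting any P100 library or P40 replicate 2 or 3 gave an adjusted p of 0.0539 to 0.217. Without P40 replicate 3 the log2 fold change was -0.53. Against P40 replicates 1 and 2 alone it was -0.82 (adjusted p = 0.0741) and against replicates 3 and 4 alone -1.06 (adjusted p = 0.0446).

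The other arm, miR-371a-3p, had a log2 fold change of -0.39 ± 0.30 (edgeR adjusted p = 0.445), turning to 0.017 without P40 replicate 4. The 3p arm made up 54.7%, 58.4%, 55.6% and 61.4% of miR-371a counts in P100 and 40.5%, 44.1%, 37.5% and 66.3% in P40, where replicate 4 exceeded every P100 library. miR-372-3p (-0.49 ± 0.34, adjusted p = 0.415) and miR-373-3p (-0.34 ± 0.27, adjusted p = 0.458) were the abundant members. All 5 tested members of the list that joins this cluster with miR-302 were below 0, beside 122 of 227 over all tested miRNAs. The median was -0.49 (-0.18 over all) and 1 was called lower (2.64% over all). The list's summed share was 9.53%, 8.54%, 8.07% and 7.38% in P100 and 9.95%, 12.2%, 14.8% and 17.4% in P40. The closest libraries of the pellets thus nearly met, in shares that are not TMM-scaled.

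**Figure D5:**
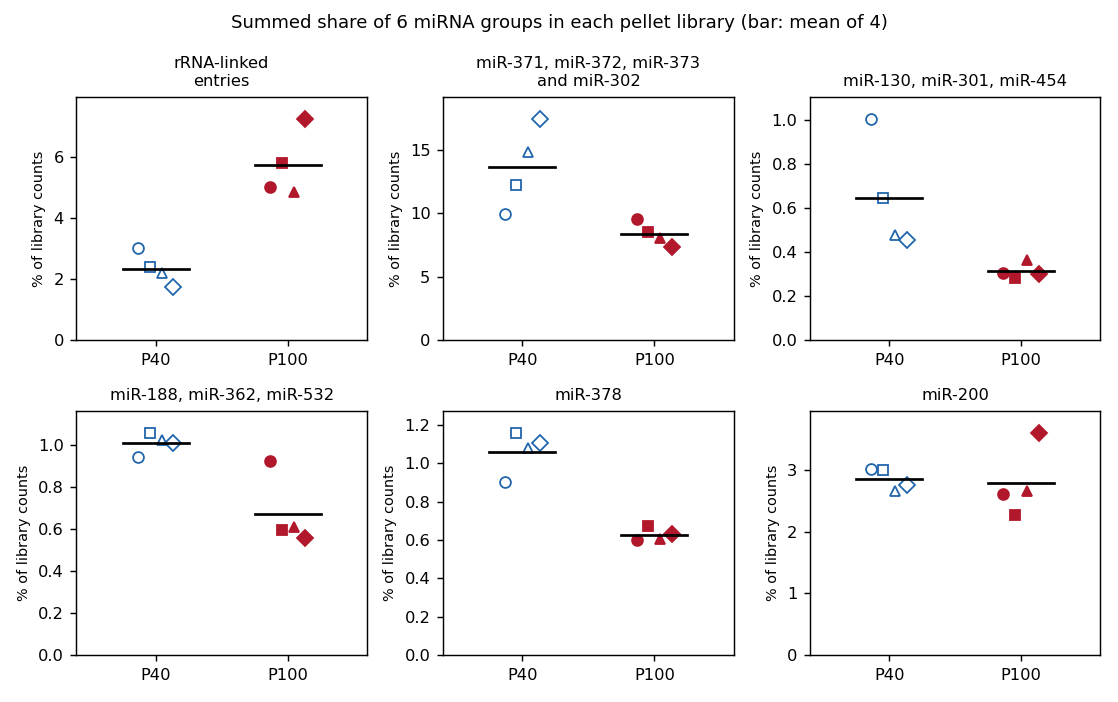
Summed share of library counts, on y axes starting at 0, of 6 groups of miRNAs in the 4 P40 and 4 P100 libraries, with circle, square, triangle and diamond for replicates 1 to 4 and a bar for the mean. Shares are not TMM-scaled. On this scale the rRNA-linked entries are higher in P100 (4.87% to 7.27% against 1.76% to 3.04%). The miR-371 to miR-373, miR-130 family, miR-362 cluster and miR-378 groups are lower without overlap, and the miR-200 family overlaps. With TMM scaling, groups lower in P100 may overlap.

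Some uncalled miRNAs had pellets that did not overlap. miR-7704, in an exon of HOXD1 at chr2:176188843-176188861 and antisense to HAGLR, made up 14.9% ± 2.79 of counts in P100 and 7.50% ± 3.80 in P40. Its levels were 123813, 148414, 217826 and 149034 CPM in P100 and 95532, 112437, 37071 and 35818 in P40. P40 replicates 3 and 4 were far below replicates 1 and 2, and the log2 fold change was 1.19 ± 0.45 (edgeR adjusted p = 0.124). Further such miRNAs higher in P100 were let-7c-5p (1.71 ± 0.59, adjusted p = 0.105) and miR-4488 (1.62 ± 0.62, adjusted p = 0.124). For let-7c-5p the counts were 11, 12, 16 and 5 in P100 and 6, 1, 6 and 1 in P40. Its P40 replicates 2 and 4 were thus below the floor of 3 counts.

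On the lower side miR-29c-3p, a repressor of collagen genes, came closest to the threshold (-1.82 ± 0.55, edgeR adjusted p = 0.0551), with 4, 6, 7 and 0 counts in P100 and 10, 19, 13 and 14 in P40. miR-107 (-0.88 ± 0.33, adjusted p = 0.124) differs from miR-103a-3p by a single base. Summed with miR-103a-3p the pellets overlapped, and the log2 fold change was -0.93 ± 0.32 (adjusted p = 0.128). miR-345-5p (-1.06 ± 0.40) and miR-378a-3p (-0.62 ± 0.24) had the same adjusted p of 0.124. The miR-378 family as a whole held 0.598% to 0.671% of counts in P100 and 0.902% to 1.155% in P40, with 4 tested, 0 called and a median of -0.97. The other arm, miR-378a-5p, lay on the opposite side (1.47 ± 0.61, adjusted p = 0.147).

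Families that mark the epithelium gave no call. The 7 tested miR-200 members, which hold cells in the epithelial state, had a median of 0.06, and miR-200c-3p had 24241, 18767, 26621 and 30943 CPM in P100 and 22065, 26443, 19192 and 17791 in P40 (0.23 ± 0.23, edgeR adjusted p = 0.521). The gut miRNAs of the miR-192, miR-194 and miR-215 group had 5 tested and a median of -0.53, which became 0.083 without P40 replicate 3 and 0.22 against P40 replicates 1 and 2 alone. The let-7 list had 9 tested and a median of -0.08, and the list of miR-99, miR-10, miR-125 and miR-100 had 7 tested and a median of 0.40. Smaller families gave medians of -0.75 (miR-15 and miR-16, 3 tested), 0.28 (miR-30, 3 tested), -0.15 (miR-23, miR-27 and miR-24, 6 tested) and 0.67 (miR-320, 4 tested), with 0 called in each. The miR-23, miR-27 and miR-24 list held 1.20% to 1.44% of counts in P100 and 1.52% to 2.24% in P40. These shares, which are not TMM-scaled, did not overlap. Over the alternatives run the median took both signs for miR-200 (-0.22 to 0.46), let-7 (-0.34 to 0.47) and miR-30 (-0.31 to 1.36).

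Broader lists held few called miRNAs. Of 20 tested miRNAs often reported in vesicles 0 were higher and 1 lower, miR-21-5p, with a median of -0.15 (-0.36 to 0.075 over the alternatives). Of 15 tested miRNAs raised in colorectal tumours 0 were higher and 2 lower, miR-21-5p and miR-106a-5p, with a median of 0.07 (-0.21 to 0.36). Beside 2.64% called lower over all tested miRNAs these are larger shares, each resting on 1 or 2 miRNAs described above. miR-320a-3p, a member of the vesicle list and the fourth most abundant in P100, was at 34732, 38868, 34852 and 31146 CPM in P100 and 10092, 11448, 23826 and 31153 in P40. P40 replicate 4 reached the P100 level, and the log2 fold change was 0.87 ± 0.33 (edgeR adjusted p = 0.124).

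Markers of the labelled cell type were present in both pellets. All 5 epithelial markers were detected in all 8 libraries and summed to 2.25% to 3.52% of counts in P100 and 2.64% to 3.01% in P40. Of 6 blood cell markers 5 were detected, at 0.14% to 0.283% in P100 and 0.273% to 0.343% in P40, and miR-142-3p was at 0 in all 8 libraries. The liver marker miR-122-5p made up 0.0222% to 0.0599% and 0.0498% to 0.0833%. Of 4 mesenchymal markers 3 were detected, at 0.0388% to 0.189% in P100 and 0.0268% to 0.0667% in P40, with miR-199a-3p at 0. Muscle markers (2 of 3 detected, miR-206 at 0) summed to at most 0.0575%, and neural markers, mainly miR-128-3p, to 0.170% to 0.355% in P100 and 0.146% to 0.230% in P40. Their part in the results was not tested, and 6 tested members of these types had 0 calls and a median of 0.11 (-0.22 to 0.38 over the alternatives).

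Whole-library measures were compared over the 8 libraries. The 10 most abundant miRNAs of each library held 60.2% ± 2.29 of counts in P100 and 53.8% ± 5.22 in P40 (exact two-sided permutation p = 0.0857), and 9 of the 10 leading miRNAs were the same in both pellets. The 3p arm took 73.1% ± 2.68 of arm-named counts in P100 and 67.6% ± 3.62 in P40 (exact permutation p = 0.0571). At an equal depth of 10017 counts P100 had 266 ± 6.02 miRNAs and P40 279 ± 7.56 (exact permutation p = 0.0571). The count-weighted length was 21.6 ± 0.10 bases in P100 and 21.9 ± 0.22 in P40 (exact permutation p = 0.0857). All 5 measures, the GC content included, had an adjusted p of 0.0857.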

How the data were processed

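Per the labels, small RNA libraries of 5 Caco-2 fractions were sequenced, and each library has a deposited file of raw counts, as unnormalised reads for each mature miRNA; a name missing from a file was taken as 0. Tools named in processing, per the submitters' processing notes, are Bowtie2, FastQC and cutadapt 1.16, and the build is GRCh38 (hg38). Alignment settings, filters and the handling of reads matching several miRNAs are not given in the sources used here.

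A minimum of 100 detected miRNAs per library excluded S100 replicate 1 (48 counts in 28 miRNAs). The other 18 libraries of 5 groups were fitted together in R 4.3.3 with edgeR 4.0.16: filterByExpr (minimum count 10, minimum total 15; 227 of 1043 miRNAs, holding 98.5% to 99.1% of pellet counts), TMM scaling, robust quasi-likelihood fit (common biological coefficient of variation 0.419) and Benjamini-Hochberg adjustment over the 227. CPM are TMM-scaled, with library sizes recomputed after the filter; the prior count for log2 CPM was 2. Shares of counts are percentages of all counts of a library and are not TMM-scaled. The TMM factors were 0.853 to 1.01 in P100 and 0.987 to 1.22 in P40, so this scaling lowers most P40 levels relative to P100. A group lower in P100 by its share may therefore overlap P40 on the TMM scale. As no spike-in enters the scaling, a miRNA called higher has a larger share of counts, not a known larger amount. The SE is derived from the F statistic. The procedure was tested on simulated data. Alternatives were DESeq2 1.42.0, library size alone, no filter, only the 8 pellets, the replicate block, equal depth (10017 counts) and leaving out each library.

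Members and lists were chosen with earlier results of these data known. The text names called miRNAs, the 10 most abundant, those sharing a hairpin, seed or number with a called one, the 6 uncalled of lowest p in each direction without overlap, and the 2 most abundant of each list. Not every miRNA under this rule is reported here. Sequences came from RefSeq (GRCh38.p14): 199 of the 227 tested miRNAs matched, covering 90.4% to 94.8% of pellet counts. The batch number in the labels equals the replicate number and pairs the libraries by label, although the deviations of same-numbered pellets correlated at only -0.0809, 0.0191, -0.128 and 0.0411. No pair of replicates agreed within sampling noise (lowest chi-square per degree of freedom 4.32).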

Additional observations from a re-analysis of the deposited data

Results flagged for a closer look

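In groups of 4 libraries, 86 groups of values were checked for a library far from the other 3 (Dixon's test at the 95% level), and 7 were found; chance gives about 1 in 20 groups. On the log2 CPM scale P100 replicate 1 was far above the other P100 libraries for miR-362-5p (6.48, 1 count against 0) and far below them for miR-301a-3p (8.35). P100 replicate 4, the shallowest library, was far below the others for miR-205-5p (11.21), miR-29c-3p (4.91, 0 counts) and miR-501-3p (10.50). P40 replicate 3 was far above the other P40 libraries for miR-371a-5p (14.54). P40 replicate 2 had the highest share of arm-named counts on the 3p arm in P40 (73.0%).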

How the results depend on the processing

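Calls were few and moved with the settings: the 5 higher and 6 lower became 10 higher in DESeq2, 16 lower with library size alone, 2 lower in a fit of only the 8 pellets and 3 lower at equal depth. With each library left out in turn there were 2 to 6 higher, 1 to 6 lower and 31 to 44 miRNAs without overlap (25 with all 8). Without P100 replicate 1 there were 3 higher and 2 lower, without P100 replicate 2 5 and 3, without P100 replicate 3 or P40 replicate 2 2 and 1, and without P100 replicate 4 2 and 2. With the replicate block, pairing libraries by batch number, 4 were higher and 5 lower in the 18-library fit, where miR-3960 and miR-371a-5p lost their calls and 9 of 11 were kept. In the 8 pellets the block gave 7 and 1, with 5 of the 11 kept: miR-21-5p and miR-371a-5p lost their calls, and miR-106a-5p, miR-362-5p, miR-454-3p and miR-3960 were not tested.

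Settings added after the data were seen gave, against P40 replicates 3 and 4 alone, 5 higher, 4 lower and 76 without overlap, against replicates 1 and 2 alone 7, 11 and 86, and with near-identical sequences summed 2 higher and 5 lower. The signs of uncalled miRNAs turned as follows: miR-17-5p 0.12 without P40 replicate 1 (-0.42 to 0.12 with each library left out) and 0.67 without P40 replicates 1 and 2; miR-301b-3p 0.051 without P40 replicates 1 and 2; miR-371a-3p 0.017 without P40 replicate 4 (-0.56 to 0.017 with each library left out) and 0.048 without P40 replicates 3 and 4; and, also without P40 replicates 3 and 4, miR-20a-5p -0.13, miR-200c-3p -0.089 and miR-301a-3p -0.31. No called miRNA changed sign in the settings that tested it, 15 for miR-362-5p, miR-454-3p and miR-3960, 16 for miR-106a-5p, 17 for miR-10396b-3p and 18 for the other 6. For miR-106a-5p, miR-10396a-3p and miR-10396a-5p these settings include the sum with the near-identical miRNA. The share of the 10 most abundant miRNAs, 6.38 points higher in P100, was -1.54 points without miR-92a-3p and miR-7704; the other 4 library measures kept their direction in all settings run. The cause of these changes was not tested beyond the settings' own construction. Depth limits miRNAs near the floor of 3 counts, 111 to 299 CPM.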
